A study of Mus musculus with 36 samples.

Results

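The genes described here are 36 imprinted genes of the mouse, taken by name from a list of known imprinted loci and matched to the Ensembl gene identifiers of the count files through their symbols. All 36 were found among the 49671 identifiers measured, and gene coordinates below are those of GENCODE M21 on GRCm38. They lie in 15 loci, of which the larger are H19-Igf2, Igf2r-Airn, Dlk1-Dio3, Peg3, Peg10-Sgce, the Kcnq1ot1 domain around Cdkn1c, and the Snrpn-Ube3a domain. In the mouse, 14 of them are expressed mainly from the maternal allele, 21 mainly from the paternal allele, and Gnas from one or both alleles depending on isoform and tissue. The counts do not separate the alleles, so that every value below is the sum over both parental copies.

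Genomic imprinting is the marking of a gene in the germ line so that after fertilisation it is expressed from only one parental copy. The mark is DNA methylation at an imprinting control region, which many genes of a cluster share, and it is kept through early development by the KRAB zinc finger proteins ZFP57 and ZFP445 with their partner TRIM28. Many imprinted genes act on the growth of the embryo and placenta, paternally expressed ones such as Igf2 often promoting it and maternally expressed ones such as Cdkn1c, Grb10 and Phlda2 often restraining it, and imprinted expression in cultured embryonic stem cells is known to drift.

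The study compared differentiating mouse embryonic stem cells that carry a doxycycline-inducible Mesp1 transgene, Mesp1 being the transcription factor that marks nascent cardiovascular mesoderm. Polyadenylated RNA of 36 libraries in 15 groups was sequenced. All groups carry the inducible Mesp1 construct, and cells without doxycycline (dox) are therefore the same line uninduced, not a line without the transgene. Batch 1 held wild-type cells at 0 h, at 12 h and 24 h without dox, and at 12 h and 24 h with dox, in 2 libraries each, with hours counted from a labelled point of hanging drop differentiation in serum medium. Batch 2 held wild-type cells at 0 h and at 24 h without dox in 2 libraries each and at 24 h with dox in 4. Batch 3 held wild-type and Zic2_KO cells in 2 libraries each, all at 24 h with dox. Stem cells kept in 2i medium, which holds them in a naive state, gave 2 libraries without dox and 2 with dox, named for 24 h in their titles. From day 4 of differentiation came 2 libraries of unsorted embryoid bodies (bulk), 5 of Flk1 and Pdgfra double positive cells (DP) and 3 of double negative cells (DN). The sorted libraries are titled WT and the bulk libraries ND, which the titles do not explain. For the sorted cells the labels' condition does not say whether dox was given. Whether DP and bulk differ in dox as well as in the sort therefore cannot be told. The labels do not say how many lines or clones were used, whether replicates were separate cultures, or what set the batches apart, so the p-values below measure the spread between these libraries.

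Counts summed over genes ran from 12126604 to 51940589 per library, which made 1 count worth 0.0193 to 0.0825 CPM (counts scaled to the same gene total in every library), and intervals from counting cover counting error only. Mesp1 stood at 183 and 348 CPM in batch 1 and 544, 209, 42.9 and 95.2 CPM in batch 2 at 24 h with dox, against 41.5 and 45.3 CPM and 0.808 and 1.5 CPM without. Zic2 transcript was still present in the libraries labelled Zic2_KO, at 73 and 56.4 CPM against 108 and 74.7 CPM in wild type. The knockout allele is not described in the labels, so this RNA level is no check of it. In batch 2, 157 of the 9141 genes well expressed in batch 1 (mean log2 CPM above 4) had no count in any library and 476 were at least 30-fold lower; none of the 157 was an imprinted gene listed here, but Gnas was low there. Of the listed genes, 35 had a mean of at least 1 CPM over the 36 libraries, 26 at least 10 CPM and 15 at least 100 CPM, and Airn alone was below 1 CPM. For 20 of the 36, no exon base was shared with another annotated gene. The shared part was 64.5% of exon bases for Igf2, 34.1% for Snrpn, 30.6% for Cdkn1c, 27.3% for Ube3a, 23.1% for Mest, 22% for Gnas and 14.8% for Usp29, whose values are uncertain because it is not stated whether counting used strand.

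The starts of genes on which the results turn are shown first, because ZFP57 recognises the letters TGCCGC when they are methylated and maintains many imprints. RefSeq promoter windows on GRCm38.p6 run from 250 bases before to 50 bases after a start. They were matched by symbol for 30 of the 36 genes, which had 48 windows between them; H19, Peg10, Sgce, Cdkn1c, Rtl1 and Impact were not among the matched genes. TGCCGC, searched on both strands, was in 10 of the 48 windows (20.83%), of 9 genes, and in 11.61% of all 32851 windows of this length. The YY1 letters GCCATNTT were in 3 windows (6.25%, against 6.05% of all windows), and a CTCF motif of 14 letters was in none, against 0.04% of all. The member windows were also richer in CpG, with a median of 12.5 against 7. Capitals mark TGCCGC or its reverse complement, and the other letters are in lower case, 5′ to 3′ on the strand of the gene. The windows are those of 3 genes that differed between batches and held a match (Plagl1, Nnat, Grb10), of members that moved with Mesp1 induction (Mest, Meg3, Snrpn), and of Peg3, which has no match in its window.
Plagl1 (chr10:13090582-13090881, plus strand): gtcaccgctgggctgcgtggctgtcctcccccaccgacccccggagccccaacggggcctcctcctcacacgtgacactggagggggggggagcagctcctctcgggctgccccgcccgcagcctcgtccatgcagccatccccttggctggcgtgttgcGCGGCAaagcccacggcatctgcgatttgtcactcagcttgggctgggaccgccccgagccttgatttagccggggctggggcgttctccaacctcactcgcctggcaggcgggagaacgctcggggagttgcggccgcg
Nnat (chr2:157559828-157560127, plus strand): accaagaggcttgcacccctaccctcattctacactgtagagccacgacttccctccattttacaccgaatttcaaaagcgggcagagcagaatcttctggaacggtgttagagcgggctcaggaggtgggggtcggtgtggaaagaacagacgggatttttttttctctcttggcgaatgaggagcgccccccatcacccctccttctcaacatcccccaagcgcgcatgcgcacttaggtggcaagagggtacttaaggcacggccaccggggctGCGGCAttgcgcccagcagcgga
Grb10 (chr11:12037371-12037670, minus strand): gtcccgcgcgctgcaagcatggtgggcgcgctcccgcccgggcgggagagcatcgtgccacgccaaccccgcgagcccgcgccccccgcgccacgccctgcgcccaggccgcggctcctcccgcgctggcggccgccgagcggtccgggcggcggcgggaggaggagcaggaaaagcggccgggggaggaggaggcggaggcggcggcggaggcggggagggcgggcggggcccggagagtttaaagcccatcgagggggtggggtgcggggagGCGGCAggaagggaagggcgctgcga
Mest (chr6:30737800-30738099, plus strand): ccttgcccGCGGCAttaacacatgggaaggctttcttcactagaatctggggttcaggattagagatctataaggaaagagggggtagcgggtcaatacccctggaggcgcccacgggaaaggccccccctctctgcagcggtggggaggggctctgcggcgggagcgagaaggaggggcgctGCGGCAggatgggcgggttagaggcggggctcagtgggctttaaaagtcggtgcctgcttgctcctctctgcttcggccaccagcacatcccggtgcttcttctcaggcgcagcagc
Meg3 (chr12:109540746-109541045, plus strand): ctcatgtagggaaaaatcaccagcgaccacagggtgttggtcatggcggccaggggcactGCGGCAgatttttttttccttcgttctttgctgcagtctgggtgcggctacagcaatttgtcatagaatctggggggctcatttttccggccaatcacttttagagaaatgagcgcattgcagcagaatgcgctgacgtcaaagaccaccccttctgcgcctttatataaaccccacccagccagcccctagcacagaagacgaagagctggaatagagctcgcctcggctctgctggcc
Snrpn (chr7:60005150-60005449, minus strand): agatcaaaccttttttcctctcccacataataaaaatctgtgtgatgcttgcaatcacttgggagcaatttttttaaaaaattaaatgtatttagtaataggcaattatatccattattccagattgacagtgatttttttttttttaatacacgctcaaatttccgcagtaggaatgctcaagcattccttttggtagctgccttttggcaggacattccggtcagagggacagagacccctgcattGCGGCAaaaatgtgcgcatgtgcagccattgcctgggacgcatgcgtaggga
Peg3 (chr7:6730370-6730669, minus strand): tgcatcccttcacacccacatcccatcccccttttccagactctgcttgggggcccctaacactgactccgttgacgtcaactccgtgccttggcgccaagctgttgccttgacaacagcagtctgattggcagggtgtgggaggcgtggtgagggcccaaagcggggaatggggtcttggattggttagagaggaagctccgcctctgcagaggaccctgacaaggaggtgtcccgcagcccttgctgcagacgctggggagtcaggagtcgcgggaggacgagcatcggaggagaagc
Mest held 2 matches and Plagl1, Nnat, Grb10, Meg3 and Snrpn 1 each. Among the windows not shown, 1 of Zdbf2 held 3 matches, and windows of Igf2 and Zim1, which also differed between batches, held 1 each. These are matches of letters in a reference sequence, and neither methylation nor protein binding was measured.

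The imprinted genes spanned a wide range of levels. Per kilobase of annotated exon, and as a mean over the 36 libraries, Peg10, a retrotransposon-derived gene needed in the placenta, was highest at 142 CPM per kb, followed by the amino acid transporter gene Slc38a4 at 90.4, Phlda2 at 82.7, Mest at 78.2 and Snrpn at 70.7 CPM per kb. The antisense RNAs Airn and Kcnq1ot1 were lowest, at 0.209 and 0.0829 CPM per kb. This order of means did not hold in every group. In batch 1 without dox, Snrpn was at 132 to 162 CPM per kb and Peg10 at 23.2 to 56.7 CPM per kb. Between the group with the lowest and the group with the highest mean CPM, Impact, an inhibitor of the GCN2 stress pathway, differed 2.94-fold, the IGF2 scavenger receptor gene Igf2r 2.95-fold, the ubiquitin ligase gene Ube3a 3.19-fold and Mkrn3 3.27-fold. The widest such ratios were those of the zinc finger gene Plagl1 (2954-fold), the deiodinase gene Dio3 (2813-fold), H19 (701-fold) and Magel2 (699-fold). The lowest groups of Plagl1, Dio3 and Magel2 held only 3 and 1, 4 and 0, and 1 and 3 counts, so the sizes of their ratios are rough. Within groups the listed genes also spread more than most: the median standard deviation of log2(CPM + 0.5) between libraries of a group was 0.43 for the 35 listed genes with a mean of at least 1 CPM and 0.24 for the 16423 genes above that level, and 8 of the 35 exceeded the 90th percentile of all. Igf2 (1.26), H19 (1.18) and Plagl1 (1.06) had the largest within-group standard deviations on this log2 scale.

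**Figure D1:**
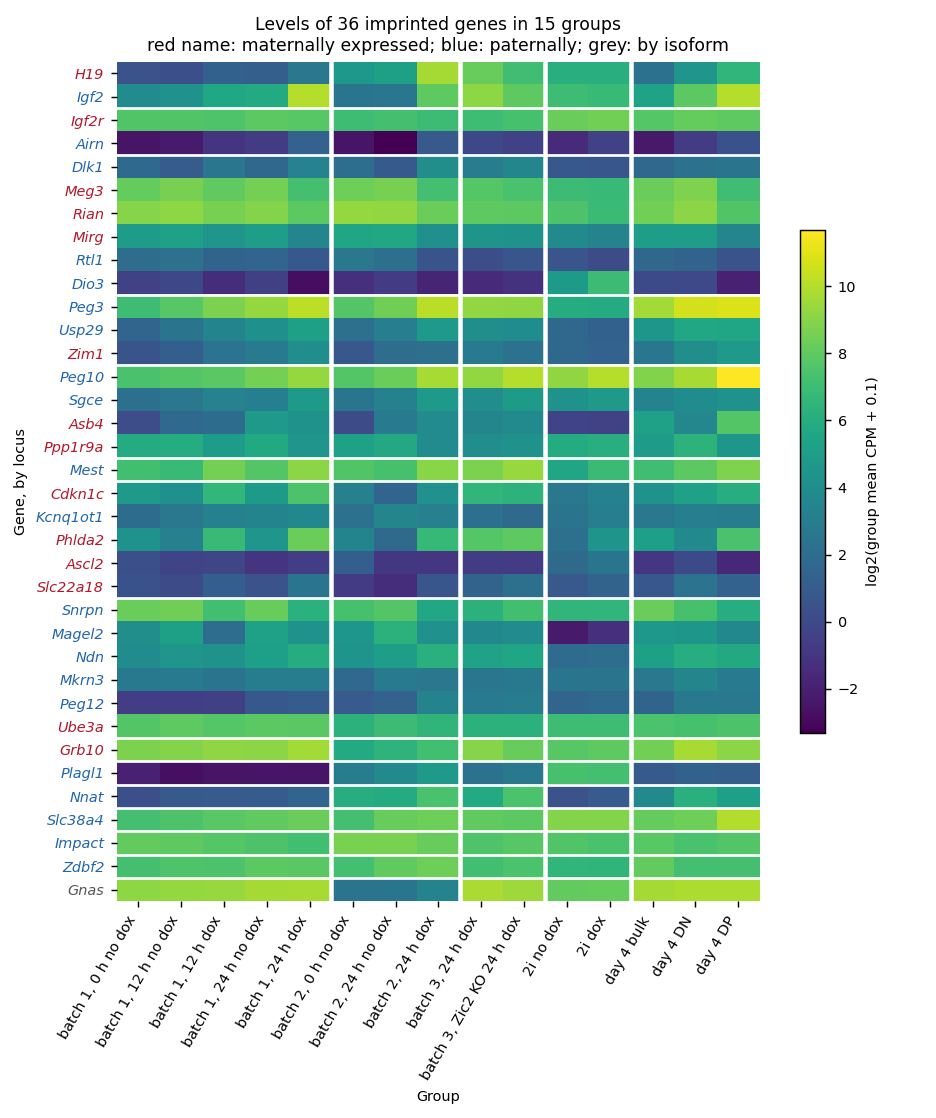
Group mean levels of the 36 imprinted genes, on a colour scale of log2(CPM + 0.1), by locus (rows, white lines between loci) and group (columns, thick white lines between batches); names are coloured by parental origin. Gnas is dark in the 3 groups of batch 2, Plagl1 and Nnat are dark in batch 1, and Dio3 is bright in 2i.

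At 24 h with dox, which induces Mesp1, imprinted genes differed in both directions from 24 h without. No group lacked the construct, so dox itself and Mesp1 cannot be told apart. Igf2, H19, Phlda2, Airn, Cdkn1c, Dlk1 and Slc22a18 rose most, and Snrpn, Dio3, Ppp1r9a, Magel2 and the noncoding RNAs of the Dlk1-Dio3 cluster fell. In the fit over batches 1 and 2 with batch as a term, 25 of 36 listed genes passed the edgeR test at an adjusted p below 0.05, of which 16 were higher and 9 lower with dox, where 30% of all 18592 genes tested passed (15.4% higher and 14.6% lower). The share of listed genes called was 69.4%, and their median log2 fold change was 0.56 against 0.02 over all genes. Of the 14 maternally expressed genes 4 rose and 4 fell, and of the 21 paternally expressed genes 12 rose and 5 fell. All 23 called genes that could be fitted in each batch alone had the same sign in both. The fit that called them used these same libraries. Batch 1 alone called 19 of the 36 (20.8% of all genes) and batch 2 alone 22 (20.5%). Meg3, Rtl1, Magel2, Peg12, Nnat and Impact were not called in batch 1 alone, nor Cdkn1c and Ndn in batch 2 alone. Without the batch term 19 were called (20.1% of all genes), and H19, Cdkn1c, Slc22a18, Plagl1, Nnat and Impact were lost. Leaving out each of the 10 libraries in turn, 19 of the 25 calls were kept every time; the exceptions were Dio3, Ndn, Peg12, Plagl1, Nnat and Impact. In bulk RNA a change of RNA per cell and a change in the share of cells of a type cannot be told apart. The summed level of 10 mesoderm markers was 1549 to 1713 CPM with dox and 928 to 953 without in batch 1, and 859.6 to 1488 against 297 to 464 in batch 2. The mesoderm list holds Mesp1 itself, so part of its rise with dox was set by the induction. For 8 primed epiblast markers the sums were 588 to 816 against 2052 to 2508 CPM and 755 to 1167 against 3062 to 3246 CPM. The 10 fibroblast markers summed to 103 to 116 against 26.9 to 28.5 CPM and 93 to 154 against 22.1 to 32.4 CPM, most of it from Col1a2, Thy1 and Fbln2, while Dcn was lower with dox and Postn, Lum, S100a4 and Fap stayed below 1 CPM. The part of such shifts in the changes below was not tested.

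**Figure D2:**
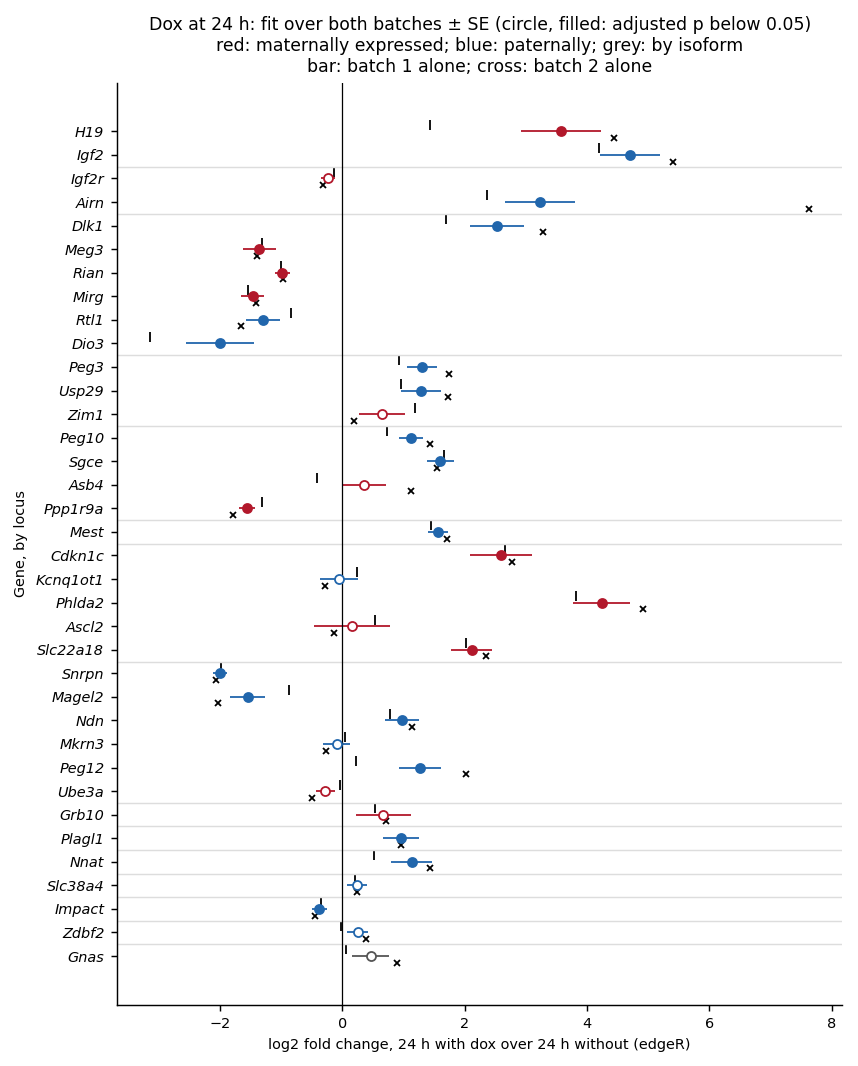
Log2 fold change of each imprinted gene at 24 h with dox over 24 h without, from the edgeR fit over both batches (circles with SE, filled where the adjusted p was below 0.05), with the values of batch 1 alone (bars) and batch 2 alone (crosses). Igf2 and Phlda2 lie farthest to the right at 4.70 and 4.24, Snrpn and Dio3 farthest to the left at -1.998 and -1.99, and H19 differs most between batches among genes with all groups above 1 CPM.

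At the H19-Igf2 locus, the growth factor gene Igf2 (chr7:142650766-142666816) and the neighbouring noncoding RNA H19 (chr7:142575529-142578143), which share an imprinting control region, both rose. Igf2 was at 942 and 1135 CPM with dox and 60.9 and 52.9 CPM without in batch 1, and at 511, 146, 210.0 and 115 CPM with dox and 7.10 and 4.51 CPM without in batch 2. In each batch all dox libraries were above all uninduced ones, and the change was 4.70 ± 0.49 (SE, edgeR adjusted p = 1.3e-06) on the log2 scale. H19 was at 6.06 and 6.00 CPM with dox and 1.84 and 2.68 CPM without in batch 1. In batch 2 it was at 1718, 246, 662 and 614 CPM with dox and 39.4 and 35.5 CPM without. The groups did not overlap in either batch, and the log2 change was 3.58 ± 0.65 (SE, edgeR adjusted p = 0.000407), being 1.43 in batch 1 alone and 4.45 in batch 2 alone. The test of that difference between batches did not pass (log2 difference 3.00 ± 0.88 (SE, edgeR adjusted p = 0.227), unadjusted p below 0.05), while DESeq2 called it. Since exons of Igf2 overlap the annotated gene Gm49394 on the same strand and Igf2os on the other, its counts are those assigned to Igf2 alone.

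At Igf2r-Airn, the antisense RNA Airn, which silences the paternal Igf2r copy in most tissues, rose from a very low level. It was at 3.65 and 1.46 CPM with dox and 0.483 and 0.535 CPM without in batch 1, and at 2.79, 0.728, 1.53 and 1.72 CPM with dox in batch 2, where neither library without dox had a count. With the floor set at 3 counts over those 2 libraries, Airn was at least 18.8-fold higher with dox in batch 2, and the fit over both batches called it (edgeR adjusted p = 0.000326). Igf2r itself was at 206 and 226 CPM with dox and 215 and 254 CPM without in batch 1 and was not called (log2 fold change -0.23, edgeR adjusted p = 0.154).

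In the Dlk1-Dio3 cluster Dlk1 rose and the other 5 members fell. Dlk1, a Notch-like ligand that holds back differentiation of several cell types, was at 8.57 and 11.4 CPM with dox and 2.73 and 3.39 CPM without in batch 1, and at 36.2, 9.39, 10.9 and 12.4 CPM with dox and 2.42 and 1.13 CPM without in batch 2. It was higher in every dox library (log2 fold change 2.53 ± 0.44 SE, edgeR adjusted p = 0.000271). The maternal noncoding RNAs, which carry many small nucleolar RNAs and microRNAs, were lower. Meg3 (chr12:109541001-109571726) was at 205 and 94.1 CPM with dox and 502 and 232 CPM without in batch 1, and at 106, 134, 157 and 196 against 378 and 403 CPM in batch 2. Its dox libraries lay below those without dox in each batch (log2 fold change -1.35 ± 0.27 SE, edgeR adjusted p = 0.000771). Mirg was at 14.6 and 8.11 against 41.7 and 24.7 CPM in batch 1 and 16.1, 15, 20.5 and 23.3 against 50.8 and 49.8 CPM in batch 2, again without overlap (log2 fold change -1.46 ± 0.19 SE, edgeR adjusted p = 1.19e-05). Rian fell by less (log2 fold change -0.97 ± 0.13 SE, edgeR adjusted p = 1.54e-05), from 572 and 389 to 289 and 193 CPM in batch 1. The ratio of Rian to Meg3 counts stayed between 0.997 and 2.85 over all 36 libraries, and that of Mirg to Meg3 between 0.0552 and 0.162. Rtl1, the paternally expressed retrotransposon-like gene antisense to microRNA hairpins of the maternal strand, was at 1.74 and 1.54 against 3.72 and 2.02 CPM in batch 1 and 1.10, 1.13, 1.67 and 1.72 against 3.92 and 5.02 CPM in batch 2. It thus moved with the maternal RNAs rather than with Dlk1 (log2 fold change -1.29 ± 0.28 SE, edgeR adjusted p = 0.00163). With 8.4% of its exon bases shared, reads of the 2 strands there cannot be told apart. Dio3, which inactivates thyroid hormone, was near the floor outside 2i, at 0.0902 and 0 against 0.580 and 0.654 CPM in batch 1 and 0.147, 0.324, 0 and 0.286 against 0.519 and 0.502 CPM in batch 2. The lower level with dox (log2 fold change -1.99 ± 0.56 SE, edgeR adjusted p = 0.0109) was called in 9 of the 10 fits that leave out 1 library, and not without batch 1 dox replicate 1 (log2 fold change -1.68).

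**Figure D3:**
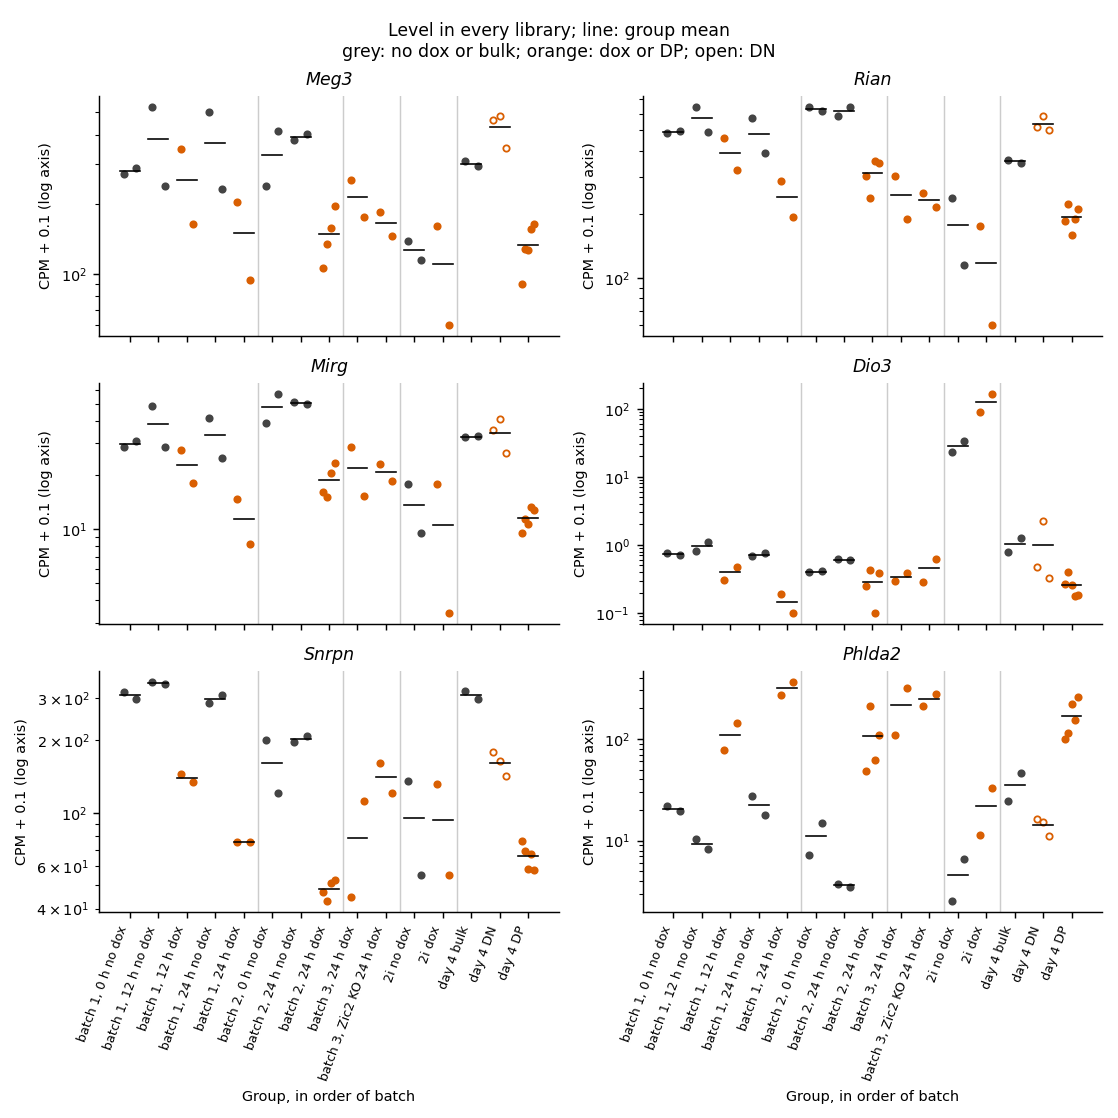
Level of 6 imprinted genes in every library (points, CPM + 0.1 on a log axis; lines are group means), by group in order of batch, with dox and DP libraries in orange, DN open and all others grey. At 24 h in batches 1 and 2, Meg3, Rian, Mirg and Snrpn are lower and Phlda2 higher with dox than without, as they are in DP replicates 3 to 5 against DN, and Dio3 is at 23.1 CPM or more only in the 4 libraries from 2i.

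In the Kcnq1ot1 domain, 3 maternally expressed genes rose together and the long antisense RNA Kcnq1ot1 that silences them on the paternal copy did not pass. Phlda2 (chr7:143501545-143503150), which restrains placental growth, was at 269 and 362 CPM with dox and 27.1 and 17.6 CPM without in batch 1, and at 48.6, 211, 61.3 and 108 against 3.69 and 3.45 CPM in batch 2. No library without dox reached the lowest dox library of its batch (log2 fold change 4.24 ± 0.46 SE, edgeR adjusted p = 1.95e-06). Cdkn1c, which encodes the cell cycle inhibitor p57, was at 200.2 and 161 against 29.4 and 27.4 CPM in batch 1 and 3.59, 35.4, 23.4 and 15.6 against 3.63 and 2.07 CPM in batch 2. It did not overlap in batch 1 and overlapped in batch 2, where dox replicate 1 stood level with the uninduced libraries (log2 fold change 2.60 ± 0.50 SE, edgeR adjusted p = 0.000689). Slc22a18, a transporter gene, was at 6.67 and 4.06 against 1.04 and 1.66 CPM in batch 1 and 0.734, 1.94, 1.39 and 2.06 against 0.462 and 0.125 CPM in batch 2, without overlap (log2 fold change 2.12 ± 0.33 SE, edgeR adjusted p = 9.66e-05). Kcnq1ot1 had a log2 fold change of -0.05 (edgeR adjusted p = 0.938) and Ascl2, a trophoblast regulator near the end of the domain, one of 0.16 (edgeR adjusted p = 0.889).

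The Snrpn-Ube3a domain, whose loss of paternal expression underlies Prader-Willi syndrome in humans, also split. Snrpn (chr7:59982495-60140219), which encodes a splicing protein of the small nuclear ribonucleoproteins, was at 75.6 and 75.5 CPM with dox and 285 and 307 CPM without in batch 1, and at 46.8, 43, 51 and 52.6 against 196 and 209 CPM in batch 2. It was lower in every dox library than in any uninduced library of the same batch, and its adjusted p was the smallest of the 36 (log2 fold change -1.998 ± 0.12 SE, edgeR adjusted p = 3.3e-09). Snrpb, the close relative with which reads could be shared, was at 289.9 and 338 against 314 and 363 CPM in batch 1. The MAGE family gene Magel2 was at 23.8 and 17.8 against 48.2 and 27.6 CPM in batch 1 and 30.2, 13.4, 15 and 17.8 against 79.8 and 78.3 CPM in batch 2, lower with dox and without overlap in either (log2 fold change -1.54 ± 0.28 SE, edgeR adjusted p = 0.000434). Ndn, its MAGE family neighbour, went the other way (log2 fold change 0.98 ± 0.28 SE, edgeR adjusted p = 0.014), and was called in 8 of the 10 fits that leave out 1 library, failing without either batch 2 library at 24 h without dox (lowest log2 fold change over all left-out libraries 0.68). Peg12 was at 1.89 and 2.03 against 1.5 and 1.84 CPM in batch 1 and 9.02, 10.7, 11.3 and 10.01 against 2.31 and 2.76 CPM in batch 2. Its rise (log2 fold change 1.27 ± 0.34 SE, edgeR adjusted p = 0.00844) was 0.22 in batch 1 alone and 2.02 in batch 2 alone on the log2 scale, and the call was lost without either batch 2 library at 24 h without dox (log2 fold change 0.98 without replicate 1). Mkrn3 and Ube3a were not called (log2 fold changes -0.09 and -0.27).

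At the Peg3 locus the zinc finger gene Peg3 and Usp29, which start next to each other on opposite strands, rose by like amounts. Peg3 (chr7:6703892-6730431) was at 1203 and 1168 CPM with dox and 718 and 529.7 CPM without in batch 1, and at 1599, 751, 1063 and 1139.6 against 344 and 340.3 CPM in batch 2. All dox libraries were above those without dox of their batch (log2 fold change 1.299 ± 0.25 SE, edgeR adjusted p = 0.000555). Usp29, a member of the ubiquitin-specific protease family, was at 42.6 and 30.7 against 22.3 and 15.2 CPM and at 46.1, 15.2, 23.4 and 24.7 against 8.65 and 8.03 CPM, also without overlap (log2 fold change 1.29 ± 0.32 SE, edgeR adjusted p = 0.00553). The maternally expressed zinc finger gene Zim1 was not called (log2 fold change 0.65, edgeR adjusted p = 0.219).

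At Peg10-Sgce the paternally expressed pair rose and a maternally expressed neighbour fell. Peg10 was at 578 and 679 CPM with dox and 378 and 378 CPM without in batch 1, and at 1040.2, 855, 847 and 692 against 326 and 317.4 CPM in batch 2 (log2 fold change 1.12 ± 0.20 SE, edgeR adjusted p = 0.00031). Sgce, which encodes a sarcoglycan, was at 31.5 and 25.6 against 9.55 and 8.21 CPM and at 42.3, 16.3, 27.5 and 24.9 against 9.64 and 9.53 CPM (log2 fold change 1.60 ± 0.22 SE, edgeR adjusted p = 2.58e-05). Neither gene overlapped between the groups of a batch. Ppp1r9a (chr6:4902917-5165661), which encodes the actin-binding protein neurabin, was at 25 and 19.9 against 61.2 and 49.1 CPM in batch 1 and 13.1, 13.8, 17.8 and 16.1 against 53.7 and 51.8 CPM in batch 2. It was lower in every dox library (log2 fold change -1.56 ± 0.13 SE, edgeR adjusted p = 1.27e-07). Asb4, a maternally expressed gene of the same cluster, was not called at this time (0.35 on the log2 scale). Mest, a hydrolase family gene often used as a mesoderm marker and located farther along chromosome 6, was at 532 and 564 against 212 and 189.6 CPM in batch 1 and 650.1, 425, 483 and 482 against 167 and 148 CPM in batch 2, with every dox library higher (log2 fold change 1.56 ± 0.16 SE, edgeR adjusted p = 1.3e-06).

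Among the genes of single loci, Nnat, which encodes the membrane protein neuronatin, was at 4.17 and 1.46 CPM with dox and 2.71 and 1.19 CPM without in batch 1, and at 228, 133, 131 and 166 against 63.9 and 58.3 CPM in batch 2. The groups overlapped in batch 1 and not in batch 2, and the call (log2 fold change 1.14 ± 0.33 SE, edgeR adjusted p = 0.0149) was lost without either batch 2 library at 24 h without dox (log2 fold change 0.97 without replicate 2). Plagl1 was below 0.2 CPM in all 10 libraries of batch 1, and its value of 0.96 ± 0.29 (SE, edgeR adjusted p = 0.0191) on the log2 scale rests on batch 2, with the call lost without uninduced replicate 1 (0.84). Impact fell by 0.37 on the log2 scale (edgeR adjusted p = 0.0222), a call kept in 7 of the 10 fits that leave out 1 library and lost, among others, without batch 2 uninduced replicate 2 (log2 fold change -0.28). Grb10, which encodes an adaptor that dampens insulin and IGF signalling, Slc38a4, Zdbf2 and Gnas were not called, with log2 fold changes of 0.67, 0.24, 0.25 and 0.46.

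After 12 h of dox, in batch 1 only, 5 of the 36 listed genes were called, 2 higher and 3 lower, where 5.66% of all 18592 genes were called (3.29% higher and 2.37% lower). An unadjusted p below 0.05 was reached by 14, and the share of all genes below it was not counted. Phlda2 was already high, at 77.1 and 142 CPM with dox against 10.3 and 8.14 CPM without (log2 fold change 3.60 ± 0.63 SE, edgeR adjusted p = 0.00197). Mest was at 325 and 406 against 103 and 127 CPM (log2 fold change 1.69 ± 0.24 SE, edgeR adjusted p = 0.000344). Both rose without overlap between the groups of 2 libraries. Snrpn was at 145 and 134 against 349 and 343 CPM (log2 fold change -1.29 ± 0.18 SE, edgeR adjusted p = 0.000288). Magel2 was at 3.19 and 4.87 against 49.8 and 23.1 CPM (log2 fold change -3.16 ± 0.49 SE, edgeR adjusted p = 0.000765), a larger fitted decrease than its -1.54 at 24 h; the difference between the times was not tested. Ppp1r9a was lower as well (log2 fold change -0.94, edgeR adjusted p = 0.00822), but not without dox replicate 2 (-0.66) or uninduced replicate 1. The mesoderm markers, which include the induced Mesp1, summed to 607 to 921 CPM with dox and 226 to 291 CPM without. The primed epiblast markers summed to 1372 to 1619 against 2546 to 3200.0 CPM, and the part of these shifts was not tested. Cdkn1c, at 98.2 and 99.3 against 18 and 18.4 CPM, lay just outside the threshold (log2 fold change 2.46 ± 0.71 SE, edgeR adjusted p = 0.0506). Igf2 was at 30.7 and 70.9 against 17.7 and 22.9 CPM and was not called (log2 fold change 1.35 ± 0.62 SE, edgeR adjusted p = 0.322).

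Over 24 h of differentiation without dox, Asb4, the Peg3 cluster, Magel2, Kcnq1ot1, Peg10 and Slc38a4 were among the genes that rose, and 13 of 36 were called, 11 higher and 2 lower, against 25.1% of all 18592 genes (13.5% higher and 11.7% lower). Of the paternally expressed genes 9 of 21 were higher and 1 lower, and of the maternally expressed genes 2 of 14 were higher and 1 lower. Over the same 24 h the mesoderm markers went from 32.3 to 39.8 to 928 to 953 CPM in batch 1 and from 14.4 to 14.7 to 297 to 464 CPM in batch 2. The trophoblast list, nearly all of it Eomes at 24 h, went from 55 to 75.6 to 565 to 584 CPM and from 27 to 35.7 to 539 to 632 CPM. The part of these lists in the results was not tested. This comparison and that of dox at 24 h share the uninduced 24 h libraries. Asb4, a substrate adaptor of a ubiquitin ligase, was at 35 and 18 CPM at 24 h and 1.45 and 0.716 CPM at 0 h in batch 1, and at 8.42 and 5.27 against 0.608 and 1.31 CPM in batch 2. It was higher in all 4 libraries at 24 h (log2 fold change 3.81 ± 0.46 SE, edgeR adjusted p = 3.84e-05). Peg3 was at 718 and 529.7 against 138 and 117 CPM in batch 1 and 344 and 340.3 against 169 and 232 CPM in batch 2 (log2 fold change 1.46 ± 0.26 SE, edgeR adjusted p = 0.00079). Usp29 was at 22.3 and 15.2 against 3.53 and 2.24 CPM and at 8.65 and 8.03 against 3.27 and 5.79 CPM (log2 fold change 1.74 ± 0.37 SE, edgeR adjusted p = 0.00287). Zim1 was at 9.43 and 4.76 against 1.96 and 0.859 CPM and at 4.04 and 3.82 against 1.29 and 1.93 CPM (log2 fold change 1.73 ± 0.46 SE, edgeR adjusted p = 0.0109). All 3 genes of the Peg3 locus were thus higher at 24 h without overlap within a batch, Zim1 included, which is expressed from the other parental copy. Magel2 was at 48.2 and 27.6 against 22 and 12.3 CPM and at 79.8 and 78.3 against 28 and 18.8 CPM (log2 fold change 1.41 ± 0.32 SE, edgeR adjusted p = 0.00447), a rise of the gene that fell with dox. Kcnq1ot1 was at 15.5 and 6.12 against 3.58 and 4.01 CPM and at 12.4 and 9.97 against 3.72 and 5.79 CPM (log2 fold change 1.29 ± 0.35 SE, edgeR adjusted p = 0.0129). Neither overlapped within a batch. Ascl2 was at 0.363 and 0.416 against 1.12 and 1.24 CPM in batch 1 and 0.577 and 0.314 against 0.152 and 4.17 CPM in batch 2, where the library of replicate 2 at 0 h stood high. The fall of Ascl2 (log2 fold change -2.03 ± 0.61 SE, edgeR adjusted p = 0.0228) was not called without that library (log2 fold change -0.95). Smaller changes of Sgce (0.78), Ndn (0.88), Zdbf2 (0.65) and Impact (-0.39, all log2) were each lost on leaving out at least 1 library, with lowest sizes of 0.67, 0.77, 0.53 and -0.30. Fitted alone, batch 1 called 12 of the 36 (18.5% of all genes) and batch 2 called 3 (4.33% of all genes). All 13 called genes had the same sign in both, and the fit that called them used these same libraries. By 12 h without dox none was called with edgeR or with DESeq2 (0.317% of all genes with edgeR, 0.274% higher and 0.043% lower). An unadjusted p below 0.05 was reached by 4, and the share of all genes below it was not counted.

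Day 4 cells sorted for both Flk1 and Pdgfra, the receptors that mark cardiovascular mesoderm, had more Phlda2, Asb4, Igf2, Peg10 and Slc38a4 than double negative cells, and less Meg3, Rian, Mirg, Ppp1r9a and Snrpn. Of 34 listed genes tested, 11 were called, 6 higher and 5 lower in DP, where 25.6% of all 16868 genes were called (9.41% higher and 16.2% lower). The median log2 fold change of the listed genes was 0.16 against 0.01 over all genes. Same-numbered DP and DN libraries deviated together, and with the replicate number as a block the count was 23 of 34, 13 higher and 10 lower, against 43% of all genes. Phlda2 was at 221, 152 and 257 CPM in DP and 16.1, 15.3 and 11.1 CPM in DN (log2 fold change 3.92 ± 0.24 SE, edgeR adjusted p = 0.000131). Asb4 was at 248, 164 and 192 against 17.5, 8.15 and 10.9 CPM (log2 fold change 4.08 ± 0.28 SE, edgeR adjusted p = 0.000212). These were the largest differences of the 34 genes and did not overlap between the sorts. Peg10 was at 3813, 2297 and 4648 against 817, 880.3 and 863 CPM (log2 fold change 2.10 ± 0.24 SE, edgeR adjusted p = 0.00112). Slc38a4 was at 1125, 769 and 1161 against 337, 353 and 299 CPM (log2 fold change 1.66 ± 0.16 SE, edgeR adjusted p = 0.000511). Igf2 was at 1443, 292 and 1565 against 342, 122 and 253 CPM, where DP replicate 4 lay below DN replicate 3. Its call (log2 fold change 2.24 ± 0.63 SE, edgeR adjusted p = 0.0395) was kept in 1 of the 6 fits that leave out 1 library, with log2 fold changes of 1.88 to 2.68 over them. It was lost on leaving out DN replicate 3, 4 or 5 or DP replicate 3 or 5, and the largest adjusted p was without DN replicate 4 (1.92). Zim1 was 0.75 higher on the log2 scale (edgeR adjusted p = 0.00815).

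On the lower side, Meg3 was at 127, 156 and 165 CPM in DP and 463, 482 and 352 CPM in DN (log2 fold change -1.502 ± 0.15 SE, edgeR adjusted p = 0.0006). Rian was at 160.5, 189.8 and 211 against 516, 585 and 501 CPM (log2 fold change -1.48 ± 0.13 SE, edgeR adjusted p = 0.00033). Mirg was at 10.6, 13.2 and 12.7 against 35.4, 41.2 and 26.3 CPM (log2 fold change -1.46 ± 0.19 SE, edgeR adjusted p = 0.00152). The 3 noncoding RNAs of the cluster were thus lower by nearly the same factor and without overlap, while Dlk1 was not called (log2 fold change 0.30, edgeR adjusted p = 0.42). Snrpn was at 58.2, 67.2 and 58 against 178, 163 and 142 CPM, lower in every DP library (log2 fold change -1.37 ± 0.11 SE, edgeR adjusted p = 0.000247). Ppp1r9a was at 32.8, 10.02 and 32.9 against 89, 68.7 and 95.9 CPM (log2 fold change -1.72 ± 0.41 SE, edgeR adjusted p = 0.0201), a call lost without DN replicate 3 or DN replicate 5 (-1.61 on the log2 scale without the latter). With the block, H19, at 47.8, 36.2 and 238 against 15.9, 11.9 and 40.9 CPM, was called higher in DP, with a log2 fold change of 1.999 (adjusted p = 0.00546) by edgeR against 2.26 without the block. So were Cdkn1c at 0.95 (adjusted p = 0.0299), Peg3 at 0.36 (adjusted p = 0.00148), Sgce at 0.33 (adjusted p = 0.0319), Impact at 0.32 (adjusted p = 0.00555), Ube3a at 0.20 (adjusted p = 0.0243) and Zdbf2 at 0.22 (adjusted p = 0.0418) in the same edgeR fit. Lower in DP with the block were Slc22a18 at -1.05 (adjusted p = 0.00535), Nnat at -0.77 (adjusted p = 0.00128), Magel2 at -0.66 (adjusted p = 0.0138), Grb10 at -0.62 (adjusted p = 0.000109) and Igf2r at -0.15 (adjusted p = 0.0406) by edgeR. Slc22a18 thus went against its neighbours Phlda2 and Cdkn1c in the sorted cells, and with them under dox. The 10 mesoderm markers summed to 1910.1 to 2823 CPM over the 5 DP libraries and 624 to 984 CPM in DN, the 10 fibroblast markers to 94.7 to 163 and 20.6 to 39.1 CPM, and the 12 trophoblast markers to 579 to 1114 and 170.3 to 405 CPM. The mesoderm list holds Pdgfra and Kdr (the gene of Flk1), the sorted receptors, so part of its difference was set by the sort. Fbln2 and Col1a1 made up most of the fibroblast sum in DP, and Eomes and Hand1, the latter also on the mesoderm list, most of the trophoblast sum. Krt7 was lower in every DP library than in DN. The primed epiblast markers summed to 479.6 to 725 CPM in DP and 1489.6 to 1997 CPM in DN, and the 8 neuroectoderm markers to 44.2 to 64.7 and 87.2 to 152 CPM. Of the trophoblast markers, Prl3d1 and Tpbpa were at 0 in every DP and DN library. The part of these shifts in the results was not tested.

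The sorted day 4 cells and the 24 h libraries of batches 1 and 2 have no library in common, so their changes can be set side by side. Of the 25 genes called with dox at 24 h and the 11 called between DP and DN, 8 were called in both, and all 8 had the same direction. Of all 16173 genes tested in both, 2274 (14.1%) were called in both, 2016 of them (88.7%) in the same direction, where the listed genes had 8 of 34 (23.5%). With the replicate block between DP and DN, 16 of the 25 were called there too, 13 in the same direction and 3 in the opposite one, namely Slc22a18, Nnat and Impact. That block called 43% of all genes between DP and DN, and the share called in both with it was not counted over all genes. Of the 8 called without the block, Igf2, Peg10 and Phlda2 were higher in both, and Meg3, Rian, Mirg, Ppp1r9a and Snrpn lower in both. Asb4, Slc38a4 and Zim1 were called between the sorts and not with dox.

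**Figure D4:**
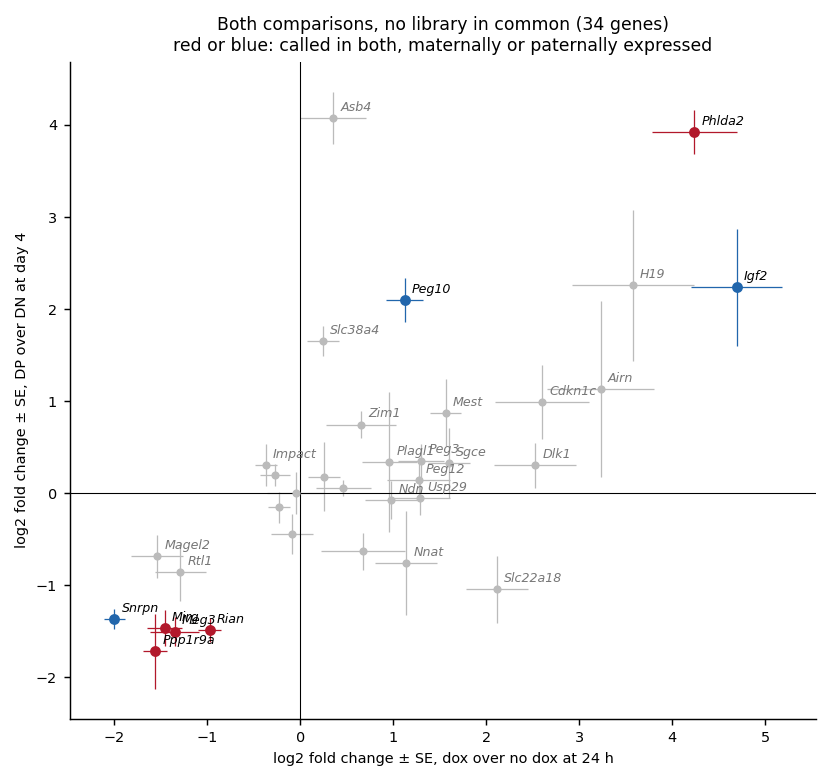
Log2 fold changes (± SE) of the 34 imprinted genes tested in both comparisons, dox over no dox at 24 h on the horizontal axis and DP over DN at day 4 on the vertical axis; coloured points were called in both. Phlda2 and Igf2 lie far to the upper right, Snrpn, Meg3, Rian, Mirg and Ppp1r9a at the lower left, and Asb4 high near the centre line.

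Against unsorted cells of the same day, DP replicates 1 and 2 differed in 27 of 36 listed genes, 20 higher and 7 lower, where 51.7% of all 19350 genes were called (22.9% higher and 28.8% lower). Reads not uniquely aligned were 21.1% and 21% of the gene total in these DP libraries and 8.74% and 8.87% in bulk, and the primed epiblast markers summed to 479.6 to 725 CPM over the DP libraries and 1642 to 1846 CPM in bulk. DP replicates 1 and 2 also lay apart from replicates 3 to 5 (chi-square per gene 84.2 to 106, against 6.47 to 23.3 within the sets), and the part of these differences in the calls was not tested. Leaving out each of the 4 libraries in turn kept 12 of the 27 calls every time, and those 12 are given here. Peg10 was at 1949.9 and 3698 CPM in DP and 407 and 501 CPM in bulk (log2 fold change 2.79 ± 0.34 SE, edgeR adjusted p = 0.00377). Slc38a4 was at 697 and 1190.1 against 274 and 280.5 CPM (log2 fold change 1.92 ± 0.26 SE, edgeR adjusted p = 0.00454). Zim1 was at 20.1 and 35.4 against 5.72 and 6.01 CPM (log2 fold change 2.40 ± 0.27 SE, edgeR adjusted p = 0.00179). These and Sgce at 19.5 and 27.9 against 9.65 and 10.8 CPM (log2 fold change 1.37 ± 0.18 SE, edgeR adjusted p = 0.00252) and Peg3 at 1606 and 1687 against 767 and 802 CPM (log2 fold change 1.23 ± 0.08 SE, edgeR adjusted p = 0.00013) were higher in both DP libraries. Usp29, Grb10 and Nnat were higher by less (log2 fold changes 0.84, 0.83 and 0.91). Snrpn was at 76 and 69.5 against 321 and 298 CPM (log2 fold change -1.93 ± 0.09 SE, edgeR adjusted p = 5.35e-05). Meg3 was at 90.4 and 129 against 308 and 292 CPM (log2 fold change -1.298 ± 0.16 SE, edgeR adjusted p = 0.00218). Mirg was at 9.35 and 11.3 against 32.6 and 32.8 CPM (log2 fold change -1.504 ± 0.12 SE, edgeR adjusted p = 0.00036), and Rian was lower by less (log2 fold change -0.64). All 3 RNAs of the cluster and Snrpn were again the lower ones. The other 15 calls depended on at least 1 library: for Igf2, at 470.2 and 1384 CPM in DP and 31.4 and 47.4 CPM in bulk, the log2 fold change was 4.71 and ranged over 3.76 to 5.27 with 1 library left out. It was not called without either bulk replicate or without DP replicate 2. For H19, at 35.3 and 112 against 4.99 and 4.48 CPM, it was 4.11 and ranged over 3.08 to 4.69, not called without either bulk replicate. Airn was at 0.510 and 2.42 against 0.135 and 0.0796 CPM (3.90), Asb4 at 177 and 234 against 27.7 and 47.8 CPM (2.60) and Mest at 324 and 568 against 134 and 131 CPM (log2 fold change 1.91). Phlda2 was at 100.1 and 113 against 24.4 and 46.4 CPM (1.75), Cdkn1c at 37.8 and 72 against 18.3 and 22.7 CPM (1.58) and Peg12 at 4.02 and 5.99 against 2.14 and 3.46 CPM (log2 fold change 1.00). Dio3, at 0.170 and 0.302 against 0.693 and 1.15 CPM (-1.77), and Magel2, at 10.1 and 8.70 against 29.6 and 20.4 CPM (log2 fold change -1.25), were lower. Each of these 8 calls was lost on leaving out at least 1 of the 4 libraries: Airn, Mest and Cdkn1c without either bulk library, with ranges of the log2 fold change over all left-out libraries of 2.39 to 4.58, 1.47 to 2.23 and 1.06 to 1.95. Asb4, Phlda2 and Magel2 lost the call without either DP library (2.25 to 3.03, 1.35 to 2.28 and -1.501 to -0.97). Peg12 lost it without bulk replicate 1 or DP replicate 2 (0.68 to 1.37), and Dio3 without either bulk library or DP replicate 1 (-2.24 to -1.38). With DP replicates 3 to 5 in place of 1 and 2, 25 of the 34 genes tested were called, 19 higher and 6 lower, against 39.3% of all genes.

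The batches themselves differed in many of these genes. In batch 2, Gnas, which encodes the stimulatory G protein alpha subunit and other isoforms, Cdkn1c, Grb10 and Igf2 were lower than in batch 1, and Plagl1, H19 and Nnat were higher. The test of the batch term called 19 of 36 listed genes, 7 higher and 12 lower in batch 2, against 49.2% of all 18592 genes (19.4% higher and 29.7% lower), so the count is near that of genes at large. By parental origin, 12 of 14 maternally expressed genes were called, 3 higher and 9 lower, and 6 of 21 paternally expressed genes, 4 higher and 2 lower, which is a description without a test. Plagl1 ran from 0 to 0.168 CPM over the 10 libraries of batch 1 and from 7.68 to 34.5 CPM over the 8 of batch 2 (log2 fold change 7.24 ± 0.33 SE, edgeR adjusted p = 2.97e-12). Nnat ran from 0.955 to 4.17 CPM and from 38.9 to 228 CPM (log2 fold change 5.56 ± 0.33 SE, edgeR adjusted p = 1.04e-10). H19 had a lowest, median and highest level of 1.05, 1.82 and 6.06 CPM in batch 1 and of 24.7, 143 and 1718 CPM in batch 2 (log2 fold change 5.58 ± 0.59 SE, edgeR adjusted p = 3.74e-07). None of these 3 genes overlapped between the batches. Gnas ran from 555 to 1001 CPM in batch 1, 3.89 to 17.8 CPM in batch 2, and 242 to 1022 CPM over the 28 libraries outside batch 2 (log2 fold change -6.63 ± 0.28 SE, edgeR adjusted p = 8.68e-13). Grb10 had a lowest, median and highest level of 417, 525 and 798 CPM and of 21.4, 89.1 and 247 CPM, also without overlap (log2 fold change -2.57 ± 0.38 SE, edgeR adjusted p = 2.08e-05). Cdkn1c had 18, 28.8 and 200.2 CPM and 2.07, 9.27 and 35.4 CPM, where the highest library of batch 2 lay above the lowest of batch 1 (log2 fold change -2.71 ± 0.39 SE, edgeR adjusted p = 1.68e-05). Igf2 (-2.18), Peg12 (1.71), Slc22a18 (-1.69), Phlda2 (-1.58), Ube3a (-1.16), Zim1 (-1.03) and Impact (1.04) also had log2 differences of at least 1 in size, and Impact ran from 122 to 272 CPM in batch 1 and 259.5 to 440.1 CPM in batch 2. The lowest, median and highest levels of Igf2 were 11, 41.8 and 1135 CPM in batch 1 and 4.51, 60.8 and 511 CPM in batch 2. Those of Phlda2 were 8.14, 24.5 and 362 CPM and 3.45, 31.8 and 211 CPM, and those of Ube3a 180.2, 226 and 278 CPM and 57.4, 92.3 and 131 CPM. Of these 3, the batches overlapped for Igf2 and Phlda2 and not for Ube3a. Peg12 had 0.523, 0.680 and 2.03 CPM and 0.836, 5.94 and 11.3 CPM in the same order, Slc22a18 0.945, 1.52 and 6.67 CPM and 0.125, 0.676 and 2.06 CPM, and Zim1 0.859, 4.77 and 20.6 CPM and 1.29, 3.93 and 6.06 CPM, all 3 overlapping. These ranges pool all conditions: 4 of 8 libraries in batch 2 were at 24 h with dox, and 2 of 10 in batch 1. The medians of Igf2 and Phlda2 were higher in batch 2, while the batch term, which compares like conditions, was negative. The differences of Zim1 and Asb4 between batches were lost on leaving out 1 library, Zim1 without batch 1 24 h dox replicate 1 (-0.75) and Asb4 in 7 of 18 such fits, for example without batch 2 uninduced 24 h replicate 2 (-0.61). The 10 visceral endoderm markers summed to 299 to 522 CPM at 0 h in batch 1 and 83.2 to 290.0 CPM in batch 2. At 24 h without dox the sums were 616 to 637 CPM in batch 1 and 50.8 to 87.9 CPM in batch 2. With dox at 24 h they were 343 to 625 and 71 to 279 CPM. What set the batches apart is not in the labels, and culture history, line, library preparation, sequencing and any difference in alignment or annotation between batches cannot be told apart. The last bears on Gnas in particular, given the well-expressed genes without a count in batch 2.

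**Figure D5:**
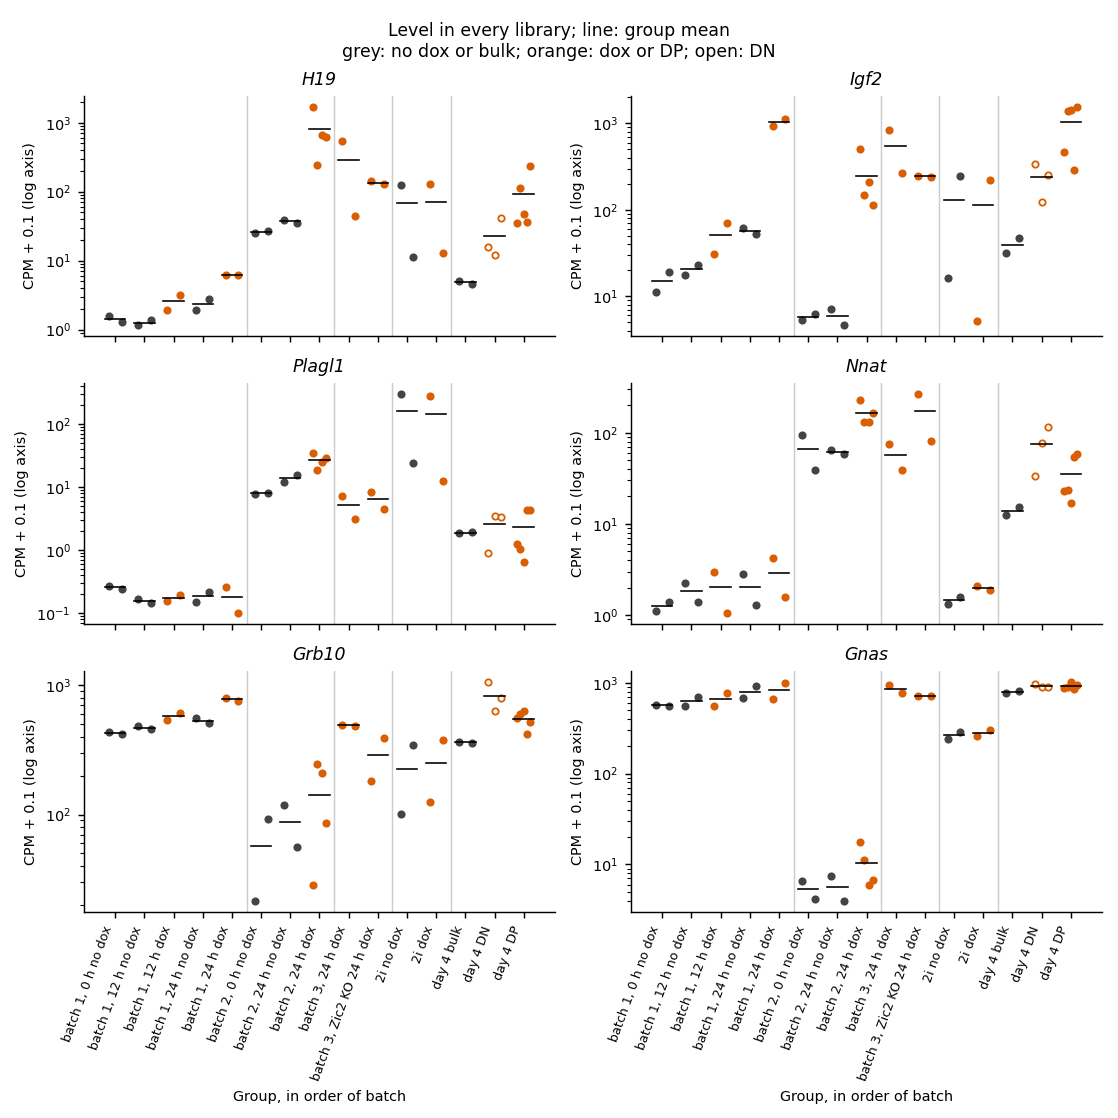
Level of 6 imprinted genes in every library (points, CPM + 0.1 on a log axis; lines are group means), by group in order of batch, coloured as in the other plot by library. H19, Plagl1 and Nnat are low throughout batch 1 and Gnas throughout batch 2. In 2i the replicates of a group lie far apart for H19, Igf2 and Plagl1, and same-numbered libraries with and without dox lie closer. For Igf2, replicate 1 is still at 16.2 CPM without and 5.09 CPM with dox.

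The response to dox at 24 h was compared between batches by an interaction term. None of the 36 genes passed with edgeR (0.629% of all genes did, 0.554% higher and 0.0753% lower in batch 2). An unadjusted p below 0.05 was reached by 5 (H19, Airn, Peg3, Asb4 and Peg12), and the share of all genes below it was not counted. DESeq2 called 2 (1.4% of all genes), H19 at 3.05 and Peg12 at 1.81 on the log2 scale, both larger in batch 2.

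In 2i medium several imprinted genes differed more between replicate numbers than with dox. H19 was at 125 and 11 CPM in replicates 1 and 2 without dox and at 129 and 12.7 CPM with dox. Igf2 was at 16.2 and 246 CPM without and 5.09 and 223 CPM with dox. Plagl1 was at 299.5 and 23.8 CPM without and 276 and 12.3 CPM with dox. In each case the libraries of replicate 1 stood on one side and those of replicate 2 on the other, H19 and Plagl1 being high and Igf2 low in replicate 1. Impact went with H19, at 289 and 101 CPM without and 253 and 81.8 CPM with dox. Grb10 went with Igf2, at 101 and 347 CPM without and 125 and 378 CPM with dox. No listed gene of 35 tested was called for dox by edgeR (0% of all 18534 genes). Dio3 and Phlda2 had an unadjusted p below 0.05, and the share of all genes below it was not counted. With the replicate number as a block edgeR called 5 (3.4% of all genes), though 2 pairs do not establish pairing. DESeq2 called 1, Dio3 (0.254% of all genes were called). Dio3 was at 89.97 and 164 CPM with dox and 23.1 and 33.4 CPM without, with all dox libraries higher (log2 fold change 2.12). Phlda2 was at 11.3 and 32.6 against 2.47 and 6.43 CPM (log2 fold change 2.25). Compared with all other libraries, where Dio3 ran from 0 to 2.14 CPM, Dio3 was high in 2i at 23.1 to 164 CPM. Magel2 was near its floor in 2i at 0.0728 to 0.360 CPM and ran from 3.19 to 79.8 CPM elsewhere, and Ndn was at 3.52 to 4.38 CPM against 13.7 to 144 CPM. The medium, the lack of differentiation and the library set cannot be told apart in this contrast, and it was not tested.

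Zic2 knockout under dox called none of the 34 listed genes tested with edgeR or DESeq2 (0% of all 16518 genes with edgeR). Only Nnat and Peg10 had an unadjusted p below 0.05, and the share of all genes below it was not counted. Nnat was at 265 and 80.7 CPM in the libraries labelled Zic2_KO and 75.6 and 39 CPM in wild type (log2 fold change 1.59). Peg10 was at 1273 and 755 against 591 and 602 CPM (log2 fold change 0.77). The wild-type libraries themselves stood apart in H19, at 537 and 44 CPM, and Igf2, at 834 and 267 CPM. Without wild-type replicate 2, edgeR called H19 and Igf2 lower in the knockout (log2 fold changes -1.98 and -1.76), a comparison in which a lone wild-type library is assumed to vary like the knockout pair.

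A second list of 43 imprinted genes was counted in the same fits. With dox at 24 h, 15 of 35 tested were called (42.9%, against 30% of all genes), 9 higher and 6 lower, led by Rasgrf1 (log2 fold change 6.41), Nap1l5 (4.37), Calcr (-3.29) and Slc22a3 (-2.78). Between the sorts 8 of 29 were called (27.6%, near the 25.6% of all genes), 3 higher and 5 lower in DP, led by Cobl (-3.16), Calcr (-2.42), Tnfrsf23 (1.73) and Atp10a (-1.32). Between batches 22 of 35 were called (62.9%, against 49.2%), 11 each way, led by Peg13 (8.05) and Zim3 (-5.79). With time 10 of 35 were called (28.6%, near the 25.1% of all genes), 2 higher and 8 lower, the most changed being Zfp264 (-3.41).

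Among 20 genes that set or keep imprints, 7 were called with dox at 24 h, 3 higher and 4 lower, a share of 35% near the 30% of all genes. The methyltransferase gene Dnmt3b fell by 2.04 on the log2 scale (edgeR adjusted p = 1.3e-06), and Tet1, which oxidises methylcytosine, fell by 0.91 (edgeR adjusted p = 0.000794). Dnmt3b is also on the list of primed epiblast markers summed above, so its fall is part of the fall of that list. Zfp57 was 0.75 higher (edgeR adjusted p = 0.0389), Tet2 0.82 higher and Uhrf1, the cofactor of maintenance methylation, 0.45 higher, while Smchd1 (-0.68) and Hells (-0.36) were lower. Between DP and DN, Dnmt3b was lower (-2.07) and Tet2 (0.74), Uhrf1 (0.48) and Dnmt1 (0.38) higher in DP. Between batches 11 of 20 were called (55%, near the 49.2% of all genes), 9 higher and 2 lower in batch 2, with Dppa3, which protects maternal marks in the zygote, at 2.17 and Dnmt3l at 1.96 on the log2 scale. Over 24 h without dox, Dnmt3l (-3.08), Dnmt3a (-1.12) and Tet1 (-0.91) fell and Tet3 (0.59) and Smchd1 (0.41) rose.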

How the data were processed

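Whole-number counts of reads per gene were deposited by the authors for 36 libraries of polyadenylated RNA. Per the submitters' processing notes, Trimmomatic, STAR, HTSeq, DESeq2 and mm10 were used; for their versions and order, the annotation and the handling of strand, nothing is given in the sources used here. Ensembl identifiers were matched to symbols through GENCODE M21 (GRCm38), which named 49326 of 49671. Rows that name no gene were left out: relative to the gene total, reads in no feature were 3.81 to 11.7%, ambiguous reads 4.22 to 5.64% and reads not uniquely aligned 7.32 to 40.6%. CPM were scaled to the gene total.

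Comparisons used edgeR 4.0.16 (R 4.3.3 with limma 3.58.1 and the package data.table, version 1.17.8): TMM scaling, its default filter on low counts, robust quasi-likelihood F tests and Benjamini-Hochberg adjustment over all genes tested, with calls at an adjusted p below 0.05. Batches 1 and 2 shared a fit that had a batch term, and each other comparison on its own groups. DP against DN used replicates 3 to 5, and DP against bulk replicates 1 and 2. Alternatives were DESeq2 1.42.0 size factors and Wald test, no filter, no batch term, each batch alone, a replicate block, other DP libraries and leaving out each library. No 2 libraries agreed within sampling noise (lowest chi-square per gene between replicates 4.47). Same-numbered DP and DN libraries had correlated deviations from their group means (0.201, 0.306 and 0.242), so the numbers were taken to pair them. Scripts were tested on simulated data.

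The 36 genes and the other lists were chosen with earlier results of these data known. Values in every library are printed for listed genes called with a log2 fold change of at least 1 in size, and of the second imprinted list at most 4 called genes with the largest change are named.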

Additional observations from a re-analysis of the deposited data

Results flagged for a closer look

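Among 68 combinations of a listed gene and a group of 4 or 5 libraries that were examined for a library far from the others, 2 stood out, where chance gives about 1 in 20. In batch 2 at 24 h with dox, replicate 1 was highest for Dlk1 at 36.2 CPM (the others 9.39, 10.9 and 12.4) and for Ndn at 144 CPM (the others 49.2, 46.3 and 56.8). Mest moved in opposite directions over 24 h without dox in the 2 batches: the log2 ratio of group means was 0.53 in batch 1 and -0.28 in batch 2, every library at 24 h lying above those at 0 h in the first and below them in the second. This difference between batches was not tested.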

How the results depend on the processing

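With the replicate number as a block, 25 listed genes were called for dox at 24 h and 13 for time at 24 h. The block called 0 for time at 12 h and for Zic2 knockout, and 25 for DP against bulk. The main counts were 25, 13, 0, 0 and 27. Of all genes the block called 33.4, 32.4, 0.355, 0 and 45% in the same order. For dox at 24 h Plagl1 was lost (log2 fold change 0.898) and Ube3a gained (-0.419). For DP against bulk H19 (3.901) and Slc22a18 (0.775) were lost. The block gave 8 instead of 5 for dox at 12 h (7% of all genes) and 23 instead of 11 for DP against DN (43% of all genes). It gave 5 instead of 0 for dox in 2i (3.4% of all genes), with Dio3, Phlda2, Mest and Peg10 higher and Rian lower. Outside DP and DN, groups shared too few numbers or had same-numbered correlations that did not establish pairing: 0.81 in batch 1 for dox at 24 h, 0.676 at 12 h and 0.827 in 2i from 2 pairs each, and -0.026 and -0.051 in batch 2. With 2 libraries in each group, differently numbered ones give the same value with the other sign (-0.827 in 2i). The 3 positive values were larger than the 0.201 to 0.306 between DP and DN, and whether they reflect pairing was not tested. In batch 1 at 12 h and 24 h, reads in no feature were 9.91 to 10.9% of the gene total in replicate 1. They were 4.74 to 5.33% in replicate 2. At 0 h they were 5.49 and 5.19%, so this gap between replicates was present at 24 h and not at 0 h. Gene totals there were also larger in replicate 1 than in replicate 2. The part of this gap in the results was not tested.

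Without a filter on low counts, 15 listed genes were called for dox at 12 h, 20 for time at 24 h, 5 for time at 12 h and 11 for the difference of the dox response between batches, against 5, 13, 0 and 0 (4.79, 15.6, 1.78 and 1.51% of all genes). It gave 21 instead of 27 for DP against bulk (lost: H19, Igf2, Cdkn1c, Phlda2, Slc22a18 and Ndn) and 10 instead of 11 for DP against DN (Igf2 and Ppp1r9a lost). Of all genes, 32.2 and 15.9% were called in these 2 comparisons without the filter. Dox at 24 h gave 19 without the batch term, 19 in batch 1 alone and 22 in batch 2 alone, against 25. Of all genes 20.1, 20.8 and 20.5% were called in these fits. Time at 24 h gave 7 without the batch term and 3 in batch 2 alone (11.2 and 4.33% of all genes), against 13. DESeq2 called 2 for the difference of the dox response (1.4% of all genes) and 1 for dox in 2i (0.254% of all genes). The share of all genes called also moved when 1 library was left out. It was 16.9 to 26.8% for DP against DN, against 25.6% with all libraries. For dox at 24 h without 1 of the batch 2 dox libraries it was 28.2 to 30.8%, against 30%. Most other such fits left 1 library in a group, and their shares are not given. The ranges that follow are therefore no measure of the listed genes apart from genes at large. Leaving out 1 library gave 20 to 25 for dox at 24 h, 4 to 5 for dox at 12 h, 9 to 12 for time at 24 h, 17 to 20 for the batches, 0 to 1 for the difference of the dox response, 0 to 2 for Zic2 knockout, 0 to 1 for dox in 2i, 9 to 13 for DP against DN and 16 to 24 for DP against bulk. Ppp1r9a in DP against bulk, -0.19 and not called with all libraries, ranged from -0.898 without DP replicate 2 to 0.273 without DP replicate 1, where it was called in the opposite direction; the cause was not tested.

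Scaling by DESeq2's size factors moved the median of all genes by at most 0.023 in size on the log2 scale and lost 1 call, in time at 24 h. TMM scaling moved 57 of 540 group means by more than 1 SD, by at most 8.08%. Genes near 1 count per library, such as Airn, Dio3 and Plagl1 in batch 1, are limited by depth.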
